A study of Oryza sativa with 48 samples.

Results

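This account describes 62 rice genes whose root transcripts dropped within the first hour of salt, in both genotypes of the study. At 72 h they were no longer far below their starting level, and some stood well above it. They were chosen from 35667 identifiers by their own root values. The level of a gene is given in CPM, the count scaled to a library total of 1e6, and its change as a log2 ratio of group means with 0.5 CPM added to both. A member had a 0 h mean of at least 5 CPM, a log2 ratio of -1.5 or less at 1 h and a log2 ratio above -0.5 at 72 h, both in wild type and in aoc root. These root values made the choice, so the root levels at 0 h and the root changes at 1 h and 72 h are given as a description. No root change at 1 h or 72 h was tested. Calls between the genotypes at 0 h were counted, but only as a description. The tests in root are those that involve the 6 h libraries. Where they compare 6 h with 0 h, they share the 0 h libraries with the choice.

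The study set the wild type Kitaake (WT) beside the genotype labelled aoc. The labels give aoc by name only, without how the line was made, in which background, or how many lines it stands for. Seedlings of both genotypes grew for 11 days in hydroponics and were harvested untreated (0 h) or after 1, 6 or 72 h in 100 mM NaCl, as root and as 2nd leaf, with 3 libraries of 3 pooled plants in each of 16 groups. No untreated plants were harvested at 1, 6 or 72 h, so salt, hour of day and plant age cannot be told apart. Of these times, 72 h is a whole number of days after 0 h, and 1 h and 6 h are not. Root libraries held 28.6 M to 71.7 M counts and leaf libraries 29.9 M to 41.0 M, where M stands for 1e6 counts. The floor used here, a count of 3 in 1 library, was worth 0.0419 CPM in the deepest root library and 0.1 CPM in the shallowest leaf library.

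Salt in the root medium is met first as an osmotic stress, because water leaves the cells, and later as an ionic stress, when sodium builds up in the tissue. Root cells sense the first phase quickly, and many transcripts move before any salt injury is visible. A transcript's level is set by its synthesis and its decay, and a count of reads does not separate these. Jasmonates are stress hormones made from membrane lipids. Plants need allene oxide cyclase (AOC) to make them. In RNA from a whole organ, fewer cells of a type and less RNA per cell cannot be told apart.

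The identifiers follow the Rice Annotation Project scheme, and of the 62 members 0 were matched in the gene table at hand, which follows another assembly. What the members encode, their sequences and the markers of root and leaf were therefore not analysed here, and members are called by identifier, at most 2 per direction and comparison.

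Before salt, the members covered a wide range of root levels. In WT root the 0 h means ran from 5.02 to 533 CPM with a median of 28.8 CPM, and in aoc root from 5.68 to 726 CPM with a median of 30.5 CPM. At 1 h the median level was 7.32 CPM in WT and 6.45 CPM in aoc. The median log2 ratio at 1 h was -1.94 in WT, which is 0.261 of the 0 h level, and -1.83 in aoc, which is 0.281 of it. The quartiles of the members lay between -2.28 and -1.72 in WT and between -2.12 and -1.68 in aoc, so a few falls, down to -5.12 in WT, were much deeper than most. In WT root all 3 libraries of 1 h lay below all 3 of 0 h for 62 of 62 members, and in aoc root for 59. The choice of low 1 h values sets much of this separation, and it was not counted over other identifiers. Of the 16778 identifiers with a 0 h mean of 5 CPM or more in both genotypes, 177 (1.05%) had a log2 ratio of -1.5 or less at 1 h in both, and the 62 members were 0.37%. The median over all 16778 was itself -0.14 in WT and -0.11 in aoc at 1 h.

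**Figure D1:**
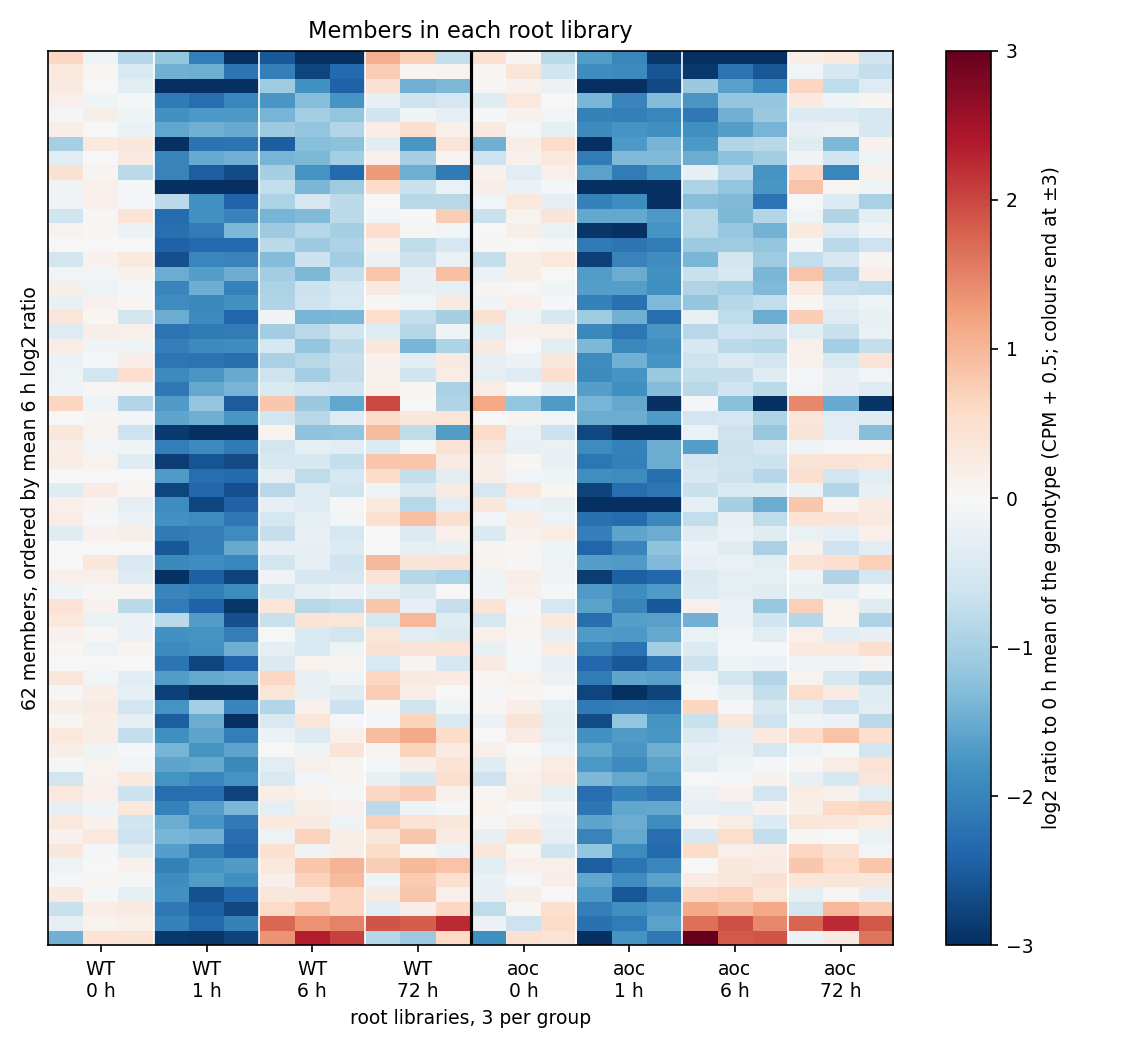
Each row is 1 of the 62 members and each column 1 root library, and colour gives the log2 ratio of its CPM to the 0 h mean of its genotype. The 1 h columns are blue throughout in both genotypes, the 6 h columns range from blue at the top, to red at the bottom, with group log2 ratios from -3.66 to 2.38, and the 72 h columns are mostly pale.

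The deepest fall was that of Os08g0113000. In WT root its libraries held 56.2, 67.8 and 59.7 CPM at 0 h and 1.53, 0.854 and 1.45 CPM at 1 h. They held 36.5, 23.3 and 28.9 CPM at 6 h and 90.4, 38.5 and 53.6 CPM at 72 h. The 1 h and 6 h libraries all lay below those of 0 h, and the 72 h libraries lay on both sides of them. In aoc root the gene stood at 38.1, 29.6 and 32.3 CPM at 0 h, 0.432, 0.68 and 1.55 CPM at 1 h, and 17.2, 14.4 and 9.56 CPM at 6 h. The log2 ratio at 1 h was -5.12 in WT and -4.61 in aoc.

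Os04g0445100 had the next deepest mean fall, from a low level. Its WT root libraries held 11.6, 9.52 and 7.63 CPM at 0 h and 0.375, 0.348 and 0.474 CPM at 1 h, a log2 ratio of -3.49. In aoc root it went from 10, 10.7 and 8.6 CPM to 0.432, 0.583 and 1.09 CPM, a log2 ratio of -3.10. At 72 h its WT libraries were uneven, with 13.4, 3.19 and 3.44 CPM, and 2 of the 3 lay below every 0 h library.

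The 2 most abundant members were Os08g0120600 and Os03g0149300. Os08g0120600 stood highest, with 554, 608 and 437 CPM in WT root at 0 h and 95.3, 190 and 65.9 CPM at 1 h. In aoc root it held 641, 951 and 586 CPM at 0 h and 112, 318 and 209 CPM at 1 h. Its log2 ratio at 1 h was -2.18 in WT and -1.77 in aoc, with the hours fully separated in both genotypes although the replicates of an hour were widely spread. Os03g0149300 came second, with replicates that lay close together. It held 345, 346 and 338 CPM in WT root at 0 h and 63.6, 68 and 67.5 CPM at 1 h, and 316, 311 and 300 CPM against 71, 67.5 and 71.4 CPM in aoc root.

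The thresholds cut through a continuous range. The member nearest the 1 h limit had a log2 ratio of -1.50012 in its less affected genotype, and the nearest gene outside that met the other limits had -1.496. At 72 h the nearest inside was -0.498 and the nearest outside -0.502, and at 0 h the nearest inside stood at 5.02 CPM and the nearest outside at 4.95 CPM. In WT root alone 142 identifiers met all limits and in aoc root alone 105, so 80 met them in WT but not in aoc and 43 in aoc but not in WT. With TMM factors, which rescale libraries by their bulk of genes, in the rule, 43 genes met it and all 43 were among the 62.

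At 72 h, where the choice set only a lower limit, the median log2 ratio was 0.04 in WT and -0.06 in aoc. Of the 62 members, 33 stood above their 0 h mean in WT and 25 in aoc, and the log2 ratio was above 0.5 for 12 and 6. The highest 72 h log2 ratio was 1.99 in WT and 1.96 in aoc.

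The 6 h root libraries took no part in the choice, though the 0 h libraries they are compared with did. The 1 h limit favours members with high 0 h values, which tilts this comparison toward lower calls. The 72 h limit favours low 0 h values, and the net effect was not measured. The backgrounds given below were not chosen by these limits. The question at 6 h was how far the members had come back. In WT root 22 of the 62 members were lower than at 0 h and 4 higher, where 11.9% and 13% of all 26195 tested identifiers were lower and higher (edgeR quasi-likelihood test, Benjamini-Hochberg adjusted p under 0.05 for a call). In aoc root 24 were lower and 3 higher, against 16.6% and 16.7% of all tested. The shares among the members were 35.5% lower and 6.45% higher in WT, and 38.7% and 4.84% in aoc. A closer background is the 16778 identifiers that passed the same 0 h minimum of 5 CPM. Of these, 16.2% were lower and 11.5% higher in WT root, and 22.4% and 16% in aoc root. The median log2 fold change was -0.49 in WT and -0.64 in aoc, against 0.01 and 0.02 over all tested identifiers.

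Of the members lower in WT, 19 were lower in aoc too, 86.4% of the WT list and 79.2% of the aoc list. Over the 16778 expressed identifiers, those at 5 CPM or more in root at 0 h, the shared part was 84.3% and 60.9%, and the members had been chosen for a like course in both genotypes. In neither genotype were 30 members called. None was called in opposite directions. By level, 28 members had a log2 ratio above -0.5 in both genotypes. These counts were not taken over other identifiers, so they have no background here. At 6 h, 60 members stood higher than at 1 h in both genotypes. The choice of low 1 h values sets much of this last count. Of all 177 identifiers that fell at 1 h in both genotypes, 84.2% stood higher at 6 h. Without WT 0 h replicate 2 or replicate 3 the number called in WT root dropped from 26 to 16, and without WT 6 h replicate 1 to 17. With the replicate number as a block, since same-numbered root libraries varied together, 34 members were called in WT root, 30 of them lower, and 32 in aoc root, 29 of them lower.

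**Figure D2:**
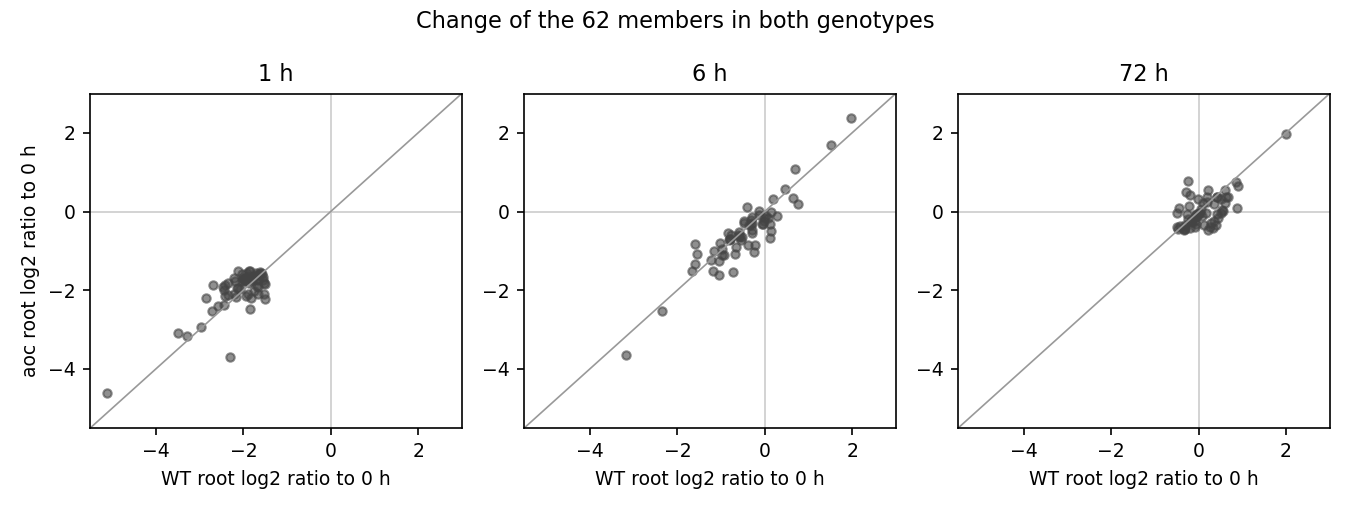
Each point is 1 member, with its log2 ratio to 0 h in WT root on the horizontal axis and in aoc root on the vertical axis, at 1, 6 and 72 h; the grey diagonal marks equal change. At 1 h all points lie at -1.5 or less on both axes by the choice of members, at 6 h the medians are -0.43 in WT and -0.57 in aoc, and at 72 h all lie above -0.5, again by the choice.

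The remaining 6 h behaviour separated the members into those still lower, those near 0 h and the few that had risen past it. Os08g0113900 had the lowest 6 h log2 fold change in both genotypes, with a lower mean at 6 h than at 1 h. In WT root it held 29.3, 17.3 and 10.3 CPM at 0 h, 8.26, 4.14 and 1.94 CPM at 1 h, 2.84, 0.268 and 1.82 CPM at 6 h and 41.1, 31.6 and 11.4 CPM at 72 h. Every 6 h library was below every 0 h library. Its log2 fold change at 6 h was -3.56 ± 0.78 (SE) in WT (edgeR adjusted p = 0.00293). In aoc root, with 37.9, 28.9 and 15.3 CPM at 0 h and 0.218, 2.92 and 1.99 CPM at 6 h, it was -4.07 ± 0.79 (edgeR adjusted p = 0.000852).

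Os01g0924966 did the same with a tighter spread. Its WT root libraries held 50.1, 41.4 and 29.1 CPM at 0 h, 14.4, 14.1 and 8.48 CPM at 1 h and 9.3, 5.54 and 7.61 CPM at 6 h. The log2 fold change at 6 h was -2.46 ± 0.32 in WT (edgeR adjusted p = 6.8e-05) and -2.69 ± 0.33 in aoc (edgeR adjusted p = 2.05e-05), where it went from 43, 53 and 27.1 CPM to 5.04, 8.4 and 6.53 CPM. For both of these identifiers the 6 h mean lay below the 1 h mean in both genotypes. They were the 2 of the 62 members that were not higher at 6 h than at 1 h in both.

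At the other end, Os06g0592500 fell at 1 h and then rose above its starting level at 6 h. In WT root it held 4.14, 16.2 and 15.9 CPM at 0 h, 1.18, 1.17 and 1.33 CPM at 1 h, 31.3, 64.2 and 51.6 CPM at 6 h and 6.48, 5.46 and 18.4 CPM at 72 h. All 6 h libraries lay above all 0 h libraries, and the 72 h libraries overlapped them. In aoc root the 1 h libraries held 0.988, 2.98 and 2.17 CPM and overlapped the 0 h libraries. The log2 fold change at 6 h was 1.98 ± 0.66 (SE) in WT (edgeR adjusted p = 0.0334) and 2.35 ± 0.66 in aoc (edgeR adjusted p = 0.0111), where the 6 h libraries held 96.9, 41.8 and 43.4 CPM after 2.82, 15.8 and 15.2 CPM at 0 h. In WT the call was lost when any of 5 libraries was left out, all of 0 h and replicates 2 and 3 of 6 h, with adjusted p of 0.0557 to 0.117. In aoc it was lost without 6 h replicate 1 (adjusted p = 0.0635).

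Os09g0412700 rose past its 0 h level at 6 h and remained above it at 72 h. Its WT root libraries held 7.8, 10.5 and 10.9 CPM at 0 h, 1.99, 1.52 and 2.02 CPM at 1 h, 33.2, 25.7 and 28.1 CPM at 6 h and 37.5, 35.7 and 47.5 CPM at 72 h. No 2 of these hours overlapped. The log2 fold change at 6 h was 1.54 ± 0.25 in WT (edgeR adjusted p = 0.000329) and 1.68 ± 0.25 in aoc (edgeR adjusted p = 0.000117). The aoc root libraries held 7.01, 5.01 and 11.8 CPM at 0 h and 26.1, 31.7 and 22.3 CPM at 6 h. These 2 were the identifiers called higher at 6 h in both genotypes, and none of the other 60 members was.

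Os08g0120600, the most abundant member, was among those near 0 h at 6 h. It held 388, 684 and 510 CPM in WT root and 453, 925 and 471 CPM in aoc root, overlapping the 0 h libraries in both. Its log2 fold change was -0.05 ± 0.41 in WT (edgeR adjusted p = 0.949) and -0.31 ± 0.41 in aoc (edgeR adjusted p = 0.597). The second most abundant, Os03g0149300, was still lower at 6 h. With 196, 160 and 181 CPM in WT root and 145, 148 and 135 CPM in aoc root, its log2 fold change was -0.97 ± 0.18 (edgeR adjusted p = 0.000978) and -1.18 ± 0.19 (edgeR adjusted p = 0.000152).

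**Figure D3:**
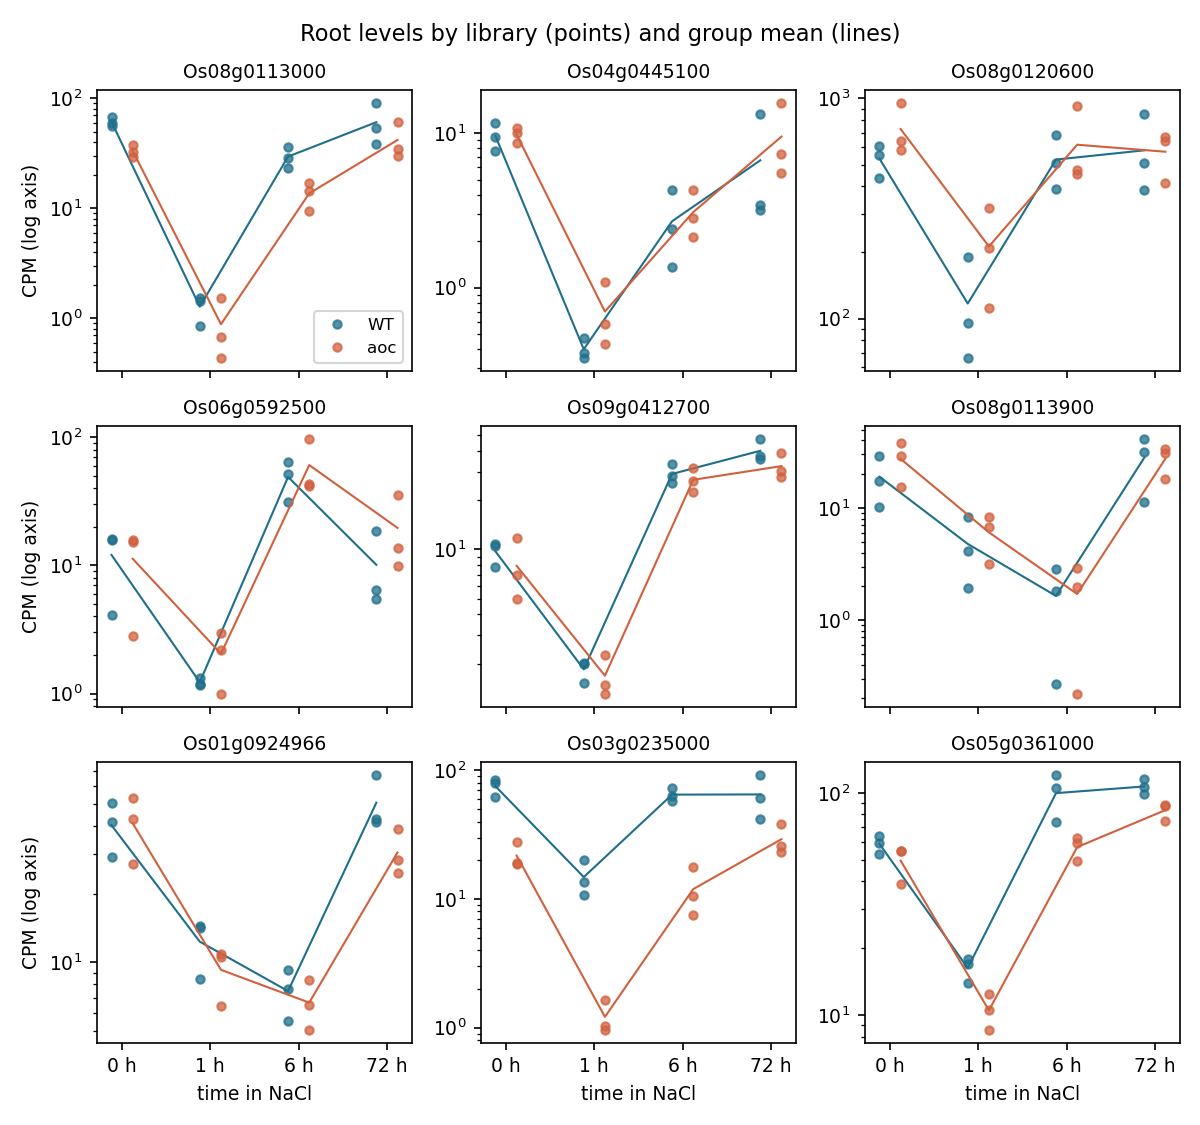
Root level of 9 members in CPM on a log axis at 0, 1, 6 and 72 h, with 1 point per library and lines through the group means, WT in blue and aoc in orange. Os08g0113900 and Os01g0924966 are lowest at 6 h, Os06g0592500 and Os09g0412700 are above their 0 h level at 6 h, and the aoc points of Os03g0235000 lie below the WT points at 0, 1, 6 and 72 h.

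The genotypes were then compared directly, to see whether the members differed between aoc and WT. The 0 h libraries of both genotypes took part in the choice, so the 0 h count is a description: 1 of the 62 members was called lower in aoc root and 0 higher, against 0.328% and 0.428% of all tested identifiers (0.756% in either direction). At 6 h, with libraries that took no part, 2 were lower and 0 higher, against 1.62% and 1.03% (2.65% in either direction). With the replicate block the calls were 2 at 0 h and 4 at 6 h, and without aoc 0 h replicate 2 the 0 h count was 0. Without aoc 0 h replicate 3 the 0 h count was 1, for a different member that was higher in aoc.

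Os03g0235000 was the member counted at both hours. At 0 h its libraries held 83.8, 79.3 and 62.5 CPM in WT root and 27.5, 19.1 and 18.6 CPM in aoc root. At 6 h they held 63.7, 57.4 and 73.2 CPM in WT and 17.7, 10.6 and 7.46 CPM in aoc. The genotypes overlapped at neither hour, and at 6 h the log2 fold change (aoc minus WT) was -2.45 ± 0.34 (SE; edgeR adjusted p = 0.00028). At 0 h, as a description, it was -1.77. It no longer met the threshold for a call at 0 h without aoc 0 h replicate 2 or replicate 3. At 1 h, where the values took part in the choice, it stood at 20.2, 10.7 and 13.5 CPM in WT and 0.957, 1.04 and 1.65 CPM in aoc, a log2 ratio to 0 h of -2.31 and -3.70. Its leaf libraries showed the same order at 0 h, with 6.66, 3.66 and 4.57 CPM in WT and 0.489, 0.613 and 0.568 CPM in aoc, a difference that was not tested.

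Os05g0361000 was lower in aoc root at 6 h. It held 74, 105 and 121 CPM in WT and 49.1, 62.7 and 59.2 CPM in aoc (-0.82 ± 0.18; edgeR adjusted p = 0.0158). In WT it had risen past its 0 h libraries of 53.2, 59.5 and 64.2 CPM (0.73 ± 0.18; edgeR adjusted p = 0.00614). In aoc, from 38.9, 55 and 54.8 CPM at 0 h, the log2 fold change was 0.13 ± 0.18 (edgeR adjusted p = 0.611). The difference between the genotypes at 6 h was lost without aoc 6 h replicate 1 (adjusted p = 0.0804) or replicate 3 (0.0508), without WT 6 h replicate 3 (0.12) and when other groups left the fit (0.127).

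The difference between the genotypes' changes from 0 h to 6 h, tested as an interaction in edgeR, was called for 0 of the 62 members and 0% of all tested identifiers, and 2 members had an unadjusted p under 0.05. DESeq2 also called 0 members. This test shares the 0 h libraries with the choice. These were Os02g0756600, at -0.61 ± 0.19 (unadjusted p = 0.00531; edgeR adjusted p = 1), and Os05g0361000. For Os05g0361000 the difference was -0.60 ± 0.25 (unadjusted p = 0.0281; edgeR adjusted p = 1). At 1 h the WT log2 ratio was the lower of the 2 for 44 of the 62 members, and at 72 h the WT ratio was the higher for 45. Both of these rest on values that made the choice.

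The leaf libraries took no part in the choice, and they show how the same genes behaved in an organ away from the salt solution. At 0 h, 54 of 62 had a higher mean in WT root than in WT leaf, and 32 were at least 10-fold higher, while 1 was at least 10-fold higher in leaf. Of the 16778 expressed identifiers, which passed the same root minimum, 75.9% were higher in WT root and 15.5% at least 10-fold higher. These counts rest on the root 0 h values that the choice used and are a description. In leaf at 0 h the median level was 5.02 CPM in WT and 3.18 CPM in aoc, and 16 of 62 members had a mean below 0.5 CPM in each genotype. The filter on low counts left 52 members tested in leaf. The other 10 stayed at 0.821 CPM or less in every leaf library, although their 0 h root levels ran from 8.02 to 65.7 CPM.

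At 1 h, when all 62 members were at their chosen low in root, few leaf changes were called. In WT leaf 0 of the 52 tested were called by edgeR (of all tested identifiers 0.818% were higher and 0.461% lower, 1.28% together). At an unadjusted p under 0.05 the numbers were 1 higher and 6 lower, and DESeq2 called 2. In aoc leaf 1 was lower and 0 higher, against 0.329% and 0.325% of all tested (0.654% together), with 1 higher and 15 lower at an unadjusted p under 0.05. The shares of all tested identifiers at that unadjusted level were not counted, so the unadjusted numbers have no background here. The median log2 ratio over all 62 members was -0.37 to -0.06 in the 3 WT leaf libraries and -0.47 to -0.38 in the 3 aoc leaf libraries. Over the 16778 expressed identifiers it was -0.02 to 0.15 and -0.17 to 0.01. Over the 52 tested members the median log2 fold change was -0.23 in WT and -0.60 in aoc, against 0.01 and -0.01 over all tested. The 1 aoc call was Os08g0167000, which went from 9.72, 7.05 and 6.44 CPM to 3.66, 2 and 2.1 CPM, with no overlap (log2 fold change -1.53 ± 0.28, SE; edgeR adjusted p = 0.0156). The count in aoc leaf was 0 without aoc 0 h replicate 1 or 2 and without aoc 1 h replicate 2 or 3. The leaf calls at 1 h depended on the groups in the fit. With the 72 h leaf libraries left out, 3 members were called in WT and 7 in aoc, and in fits of the 2 groups alone 1 and 0.

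At 6 h more members were lower in leaf. In WT leaf 16 were lower and 3 higher, against 13.6% and 15.6% of all 24317 tested identifiers, and in aoc leaf 18 were lower and 3 higher, against 15.9% and 19.6% (35.6% together). Over the expressed identifiers tested in leaf, 15.5% were lower and 16.3% higher in WT, and 18.3% and 20.9% in aoc. Of those lower, 12 were lower in both genotypes, 75% of the WT list and 66.7% of the aoc list (83.8% and 71.8% over all tested identifiers), and the same 3 were higher in both. The shared part of the higher calls was not counted over all tested identifiers. The median log2 ratio over all 62 members was -0.44 to -0.33 in the WT leaf libraries and -0.41 to -0.40 in the aoc leaf libraries, against -0.01 to 0.09 and -0.03 to 0.22 over the expressed identifiers. That ratio includes the members not tested in leaf, and the 0.5 CPM added draws low levels toward 0. Over the 52 tested members the median log2 fold change was -0.92 in WT and -0.91 in aoc. Over all tested identifiers it was 0.03 and 0.02. Of the 19 members lower at 6 h in root in both genotypes, 18 were tested in leaf and 7 were lower there in both as well, 36.8% of the root list and 58.3% of the leaf list. Over the expressed identifiers the shared part was 26.4% and 28.2%. Of the 30 members called in root in neither genotype, 22 were tested in leaf and 4 were lower there in both. These differences in share were not tested. Without leaf WT 6 h replicate 1 the number called in WT leaf dropped from 19 to 10, and in a fit of the 2 groups alone it was 31.

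Os03g0149300, the second most abundant member in root, was among the members lower in leaf at 6 h in both genotypes. It went from 15, 15 and 14.5 CPM to 2.83, 3.87 and 1.79 CPM in WT leaf (-2.50 ± 0.36, log2 fold change and SE; edgeR adjusted p = 0.000127). The aoc leaf libraries went from 14.7, 14.7 and 9.94 CPM to 2.81, 2.59 and 1.7 CPM (-2.60 ± 0.36; edgeR adjusted p = 4.27e-05). The hours did not overlap in either genotype. At 1 h the same leaves had held 16, 15.7 and 25.2 CPM in WT and 9.14, 11.9 and 10.9 CPM in aoc, neither of them called.

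Os05g0460000 fell in leaf at 6 h from one of the higher leaf levels. In WT leaf it went from 85.8, 113 and 125 CPM to 18.8, 29.2 and 35.2 CPM (-2.06 ± 0.61; edgeR adjusted p = 0.0161). The aoc leaf libraries went from 126, 108 and 189 CPM to 16, 16 and 28 CPM (-2.91 ± 0.63; edgeR adjusted p = 0.00156). Every 6 h library lay below every 0 h library. In WT the fall missed the threshold when 0 h replicate 3 (adjusted p = 0.0525) or 6 h replicate 1 (0.0757) was left out.

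Of the members higher in leaf at 6 h, Os11g0639300 went from 12.1, 6.13 and 10.9 CPM to 34.1, 37.9 and 45.5 CPM in WT leaf (1.92 ± 0.39; edgeR adjusted p = 0.00139) and from 19.6, 11.3 and 11.8 CPM to 60.2, 63.9 and 69.9 CPM in aoc leaf (2.09 ± 0.39; edgeR adjusted p = 0.000517). At 1 h it was already above every 0 h library, with 21.7, 18.4 and 20 CPM in WT and 33.2, 26.2 and 29.8 CPM in aoc, but was called in neither (edgeR adjusted p = 0.249 and 0.207). In the same hour it fell in root from 22.3, 17.8 and 18.8 CPM to 7.16, 5.34 and 6.17 CPM in WT.

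Os02g0284800 rose in leaf at 6 h from a low level. It went from 2.48, 1.98 and 2.36 CPM to 9.04, 6.87 and 7.48 CPM in WT (1.68 ± 0.31; edgeR adjusted p = 0.000633) and from 2.79, 2.01 and 3 CPM to 7.59, 5.55 and 5.14 CPM in aoc (1.11 ± 0.30; edgeR adjusted p = 0.00822). In root at 6 h its log2 fold change was -0.10 ± 0.19 in WT (edgeR adjusted p = 0.74) and -0.38 ± 0.19 in aoc (edgeR adjusted p = 0.128).

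**Figure D4:**
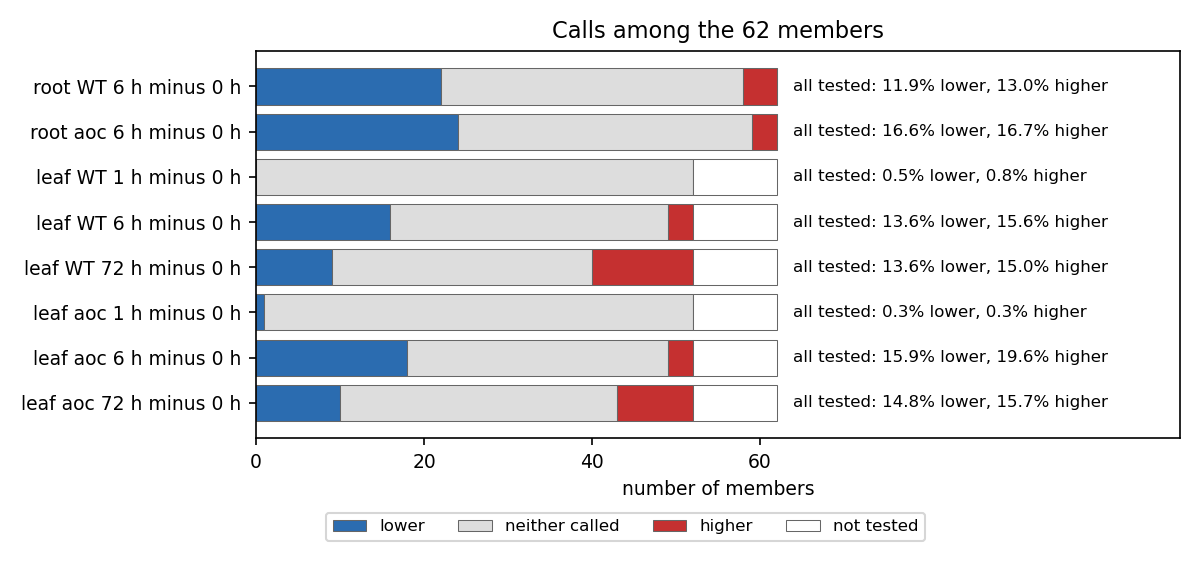
Number of the 62 members called lower (blue), called higher (red), tested but not called (grey) or left out by the filter on low counts (white) at each hour against 0 h, with the shares over all tested identifiers printed at the right. In root and leaf at 6 h the lower calls outnumber the higher ones in both genotypes, 22 to 4 and 24 to 3 in root and 16 to 3 and 18 to 3 in leaf.

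At 72 h the leaf calls went both ways. In WT leaf 12 members were higher and 9 lower, against 15% and 13.6% of all tested, and in aoc leaf 9 were higher and 10 lower, against 15.7% and 14.8%. In both genotypes 6 were higher and 8 lower. The 8 were 88.9% of the WT lower list and 80% of the aoc lower list, against 69.9% and 64.4% over all tested identifiers. For the higher calls the shared part over all tested identifiers was not counted. The median log2 ratio over all 62 members was -0.09 to 0.17 in the WT leaf libraries and -0.14 to 0.12 in the aoc leaf libraries. Over the 52 tested members the median log2 fold change was 0.48 in WT and 0.01 in aoc, against 0.03 and 0.04 over all tested. The counts depended on single libraries. In WT leaf the 21 calls became 11 without WT 0 h replicate 2 or without WT 72 h replicate 3, and in aoc leaf the 19 became 10 and 12 without aoc 0 h replicates 1 and 2. In fits of the 2 groups alone each genotype had 6. Leaf replicates lay furthest apart at 72 h, and the main fit shares 1 estimate of the spread over all leaf groups.

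Os02g0756600 rose in leaf at 72 h from near 0. In WT leaf it held 0.0322, 0.705 and 0.426 CPM at 0 h and 2, 17.2 and 4.44 CPM at 72 h (4.19 ± 1.03; edgeR adjusted p = 0.00692). In aoc leaf it held 0.259, 0.195 and 1.7 CPM at 0 h and 3.71, 24.1 and 5.24 CPM at 72 h (3.79 ± 0.99; edgeR adjusted p = 0.00889). Replicate 2 was highest at 72 h in both genotypes. Both calls were lost in fits of the 2 groups alone (adjusted p = 0.0564 in WT and 0.0819 in aoc), and in aoc also without 72 h replicate 2 (2.54; adjusted p = 0.0583). In root, the same gene was still lower at 6 h, with 34.9, 33 and 40.7 CPM in WT after 85.3, 74.4 and 66 CPM at 0 h (-1.09 ± 0.14; edgeR adjusted p = 5.6e-05).

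Os06g0231300 was also higher in leaf at 72 h, from 32.4, 34.4 and 27.2 CPM to 45.6, 104 and 123 CPM in WT (1.51 ± 0.40; edgeR adjusted p = 0.0106). The aoc leaf libraries went from 30.4, 26 and 37.9 CPM to 40.1, 42 and 133 CPM (1.08 ± 0.40; edgeR adjusted p = 0.047). Here 1 library decided the size of the aoc rise. Without aoc 72 h replicate 3 the log2 fold change was 0.20 (adjusted p = 0.671). The aoc call was also lost without any of the aoc 0 h replicates 1 (adjusted p = 0.114), 2 (0.138) and 3 (0.0602), with every gene kept in the test (0.0642) and in the fit of the 2 groups alone (0.217). In WT the rise missed the threshold without 72 h replicate 3 (1.11; adjusted p = 0.0737) and in the fit of the 2 groups alone (0.0584).

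Os08g0167000 fell most in leaf at 72 h, from 6.04, 8.3 and 7.44 CPM to 2.23, 1.65 and 1.44 CPM in WT (-2.11 ± 0.28; edgeR adjusted p = 0.000196). In aoc leaf it ended at 2.01, 1.62 and 0.98 CPM (-2.49 ± 0.29; edgeR adjusted p = 3.43e-05). It was also lower in leaf at 6 h in both genotypes, with -1.40 ± 0.27 in WT (edgeR adjusted p = 0.00102) and -1.98 ± 0.28 in aoc (edgeR adjusted p = 5.07e-05). In root at 72 h it stood at 253, 156 and 144 CPM in WT, around its 0 h libraries of 215, 201 and 174 CPM. Os03g0149300 was lower in leaf at 72 h as well, with 7.18, 3.22 and 3.62 CPM in WT (-1.74 ± 0.35; edgeR adjusted p = 0.00228) and 4.29, 1.65 and 3.15 CPM in aoc (-2.27 ± 0.35; edgeR adjusted p = 0.000275).

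**Figure D5:**
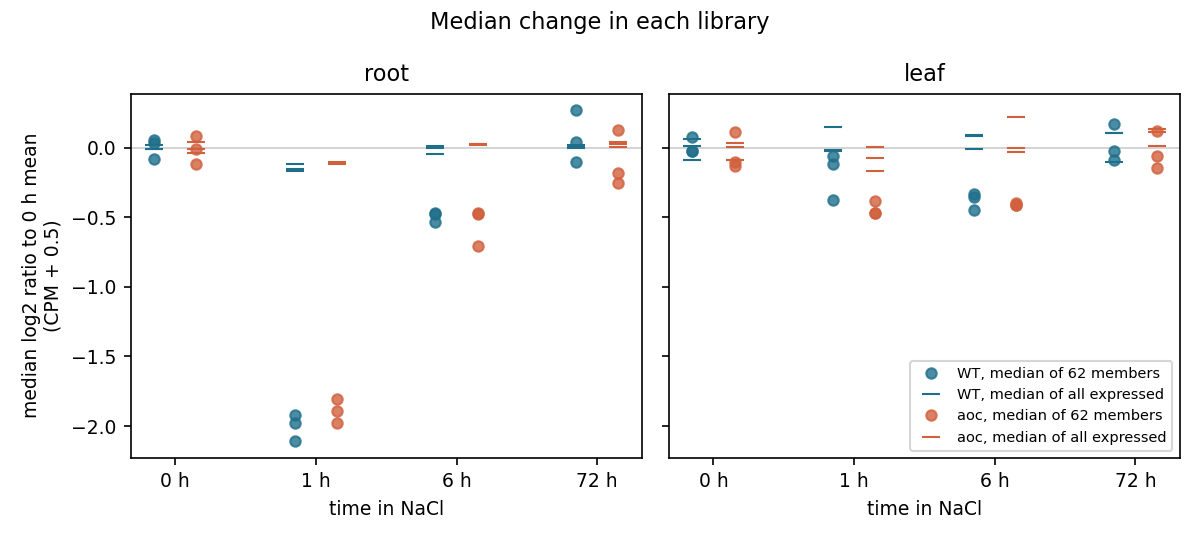
Points give the median log2 ratio of the 62 members to their genotype's 0 h mean in each library, in root (left) and leaf (right), and dashes the same over the 16778 expressed identifiers, WT in blue and aoc in orange. In root the points fall to between -2.11 and -1.81 at 1 h, as the choice required, and lie between -0.71 and -0.47 at 6 h; in leaf they lie between -0.47 and -0.06 at 1 h and between -0.44 and -0.33 in WT at 6 h.

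Beside the members, 2 other sets were laid out by rules of their own, for description only. The 12 identifiers that fell at 1 h and had a log2 ratio of -1.5 or less at 72 h as well, in both genotypes, were lower at 6 h in 12 of 12 cases in WT root and 11 of 12 in aoc root. Their median log2 fold change at 6 h was -2.23 and -2.29, against -0.49 and -0.64 for the 62 members. These 12 were chosen as low at 1 h and 72 h against the same 0 h libraries, which sets much of their 6 h counts. The 244 identifiers with the mirror pattern, a rise at 1 h that was gone at 72 h, were higher at 6 h in 43.4% of cases in WT root and lower in 4.92%, and in aoc root in 53.3% and 4.51%. The mirror set needed a mean of 5 CPM or more at 1 h, its high hour, and had no minimum at 0 h. Its 6 h counts also share the 0 h libraries with its choice. In leaf at 1 h, 32 of the 231 mirror identifiers tested were higher in WT and 7 in aoc, against 0.818% and 0.325% of all tested identifiers. Of the 52 tested members, 0 and 1 were called in any direction. No test of these differences between sets was made.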

How the data were processed

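The authors deposited 1 table of raw read counts for 35667 identifiers in 48 libraries, all of them used. Per the submitters' processing notes, fastp, HISAT2, DESeq2 and the build IRGSP-1.0 were named. How reads were counted, with which strand setting and annotation, is not given in the sources used here, and reads of overlapping or antisense genes and of near-identical copies may be shared. Root RNA came from another extraction kit than leaf RNA, per the labels' protocols, so kit and tissue cannot be told apart.

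Members and comparison lists were chosen with earlier results of these data known. The named identifiers followed a rule: the 2 deepest falls, the 2 highest levels, and per comparison up to 2 in each direction, called in both genotypes (or between them), with groups that did not overlap and at least 5 CPM in the higher group. Levels are CPM by library total, printed per replicate in the order 1, 2, 3.

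Tests used R 4.3.3 with edgeR 4.0.16 (limma 3.58.1): TMM factors, filterByExpr, robust quasi-likelihood fits of the 24 libraries of a tissue, and Benjamini-Hochberg adjustment over all identifiers tested. Standard errors (SE) were taken as the absolute log2 fold change divided by the square root of the F statistic. Alternatives were RLE factors, no filter, DESeq2 1.42.0, a replicate block, the compared groups alone, leaving out libraries, and other forms of the rule. Replicates in a group differed beyond sampling noise (chi-square per degree of freedom of 17 or more). At 72 h this value was 170 to 234 in WT leaf and 178 to 301 in aoc leaf. In the other leaf groups it was 27.1 to 114. The fit of a tissue shares 1 estimate of the spread between its groups. Same-numbered libraries varied together, with correlations of 0.15 to 0.512 in root and, in leaf, over 0.1 in every pair for WT at 0 and 6 h and aoc at 0 and 72 h. Plants were pooled per library, and the sources do not say whether pools came from separate cultures. Floors cover counting error only.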

Additional observations from a re-analysis of the deposited data

Results flagged for a closer look

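For the named members, cases were collected in which all 3 libraries of 1 group lay above their own 0 h mean and all 3 of another group lay below theirs. Values are means over the 3 libraries of the log2 ratio to the 0 h mean, with 0.5 CPM added, and none of these differences was tested. At 6 h Os06g0592500 was above 0 h in root and below it in leaf in both genotypes, at 1.92 against -0.98 in WT, a difference of 2.90, and at 2.26 against -2.40 in aoc, a difference of 4.66. Os09g0412700 in WT at 6 h stood at 1.52 in root and -0.27 in leaf, a difference of 1.79.

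The reverse order was seen for 3 others at 6 h. Os11g0639300 in aoc stood at -0.33 in root and 2.14 in leaf, a difference of -2.47. Os02g0284800 in aoc stood at -0.32 and 1.07, a difference of -1.39. Os06g0231300 in WT stood at -0.31 and 0.28, a difference of -0.59. Between genotypes, Os03g0149300 in leaf at 1 h stood at -0.29 in aoc and 0.31 in WT, a difference of -0.61.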

How the results depend on the processing

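The rule gave 50 to 68 members in place of 62 when 1 of the 18 root libraries of 0, 1 and 72 h was left out, of which 48 to 62 were among the 62. Group medians gave 54 (40 shared), 1 CPM added gave 53 (52 shared) and TMM factors 43. Leaving out 1 library gave 16 to 22 calls among the members in WT root at 6 h and 21 to 26 in aoc root, 10 to 15 and 17 to 21 in WT and aoc leaf at 6 h, 11 to 25 and 10 to 23 in leaf at 72 h, 0 and 0 to 1 in leaf at 1 h, 0 to 1 and 1 to 2 between genotypes in root at 0 and 6 h, and 0 for the interaction. Between genotypes at 0 h (1 call, a description), RLE factors gave 2, the replicate block 2, DESeq2 3 and a fit of the 2 groups alone 2. At 6 h (2 calls) the block gave 4, DESeq2 4 and such a fit 1. In leaf at 1 h the replicate block gave 1 in WT and 4 in aoc, DESeq2 2 and 3, fits of the 2 groups alone 1 and 0, and leaving the 72 h libraries out of the fit 3 and 7. Fits of the 2 compared groups alone gave 31 in WT leaf at 6 h and 6 in each genotype at 72 h. The block changed no other count by more than 1.5 times and no call of a named identifier. The cause of these moves was not tested. For the named identifiers, 295 of 321 values kept direction and call, 26 lost the call and 0 reversed. Leaf genes near the floor of 3 counts limit what the leaf tests can show.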

Other observations

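The members were spread over all 12 chromosomes, read from the first digits of their identifiers. Chromosome 5 held 11 of the 62 (17.7%, against 8.36% of the expressed identifiers) and chromosome 8 held 9 (14.5%, against 6.52%), while chromosome 1 held 5 (8.06%, against 14.2%) and chromosome 11 held 1. In the order of the table, 0 pairs of members lay within 5 rows of each other. No such count was made for other lists of 62 identifiers, so this number has no background here.

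Replicate numbers left a mark on some members in root. Os05g0460000 was lowest in replicate 1 in WT root at 0, 1 and 6 h, with 61.1 against 150 and 155 CPM at 0 h, 12.2 against 26.1 and 26.5 CPM at 1 h and 21.7 against 50.3 and 51.9 CPM at 6 h. In aoc root it held 44.8, 141 and 181 CPM at 0 h and 13.2, 36.9 and 46.1 CPM at 1 h, again lowest in replicate 1. At 72 h the order differed, with 98.4, 35.8 and 159 CPM in WT and 95.4, 48.1 and 134 CPM in aoc. Os06g0592500 at 0 h showed the same, with 4.14 CPM in WT replicate 1 and 2.82 CPM in aoc replicate 1, against 15.2 to 16.2 CPM in the other 4 root libraries.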
